A study of Mus musculus with 18 samples.

Results

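The adipocyte marker genes were 8 of the 30172 genes listed in the files: Adipoq, Fabp4, Cfd, Plin1, Plin4, Lep, Cidec and Retn. They were chosen by name, as genes that mark fat cells, to show in every library how much fat-cell transcript was measured beside the ovary. The choice was made with earlier results of these data known. The 18 libraries were made from whole ovaries of wild type C57BL/6J females (F1) whose mothers ate normal chow (F1-Control) or chow enriched to 3% methionine to raise homocysteine (F1-HHcy) from 4 weeks before mating through gestation and lactation, per the labels. The methods of the study give a longer feeding period before mating, so the length of that exposure is not settled here. The pups themselves were not treated, and each of the 6 groups, F1-Control and F1-HHcy at postnatal day 3 (Pd3), 7 (Pd7) or 21 (Pd21), had 3 libraries. By the labels, batch 1 held both early days and batch 2 held Pd21, so that diets were always compared within a batch, while age and batch cannot be told apart where Pd21 is set beside the other days. The labels do not say how many pups gave RNA to a library or how the ovary was freed from the tissue around it, and p-values measure only the spread between these libraries.

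Fat cells store triglyceride in a lipid droplet and secrete hormones called adipokines into the blood. The nuclear receptor PPARγ and the C/EBP factors switch on the genes of both tasks as a fat cell matures. In the mouse, the ovary lies in a bursa beside the oviduct and is embedded in a gonadal fat pad, and some lipid droplet proteins are also made by steroid-producing cells, which store cholesterol esters.

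Values are FPKM, the fragments of a gene divided by its length and by the depth of the library, and between 33630487 and 39399184 fragments were counted per library. At this depth 1 fragment was worth 0.0206 to 0.0241 FPKM for Adipoq and 0.00786 to 0.00920 FPKM for Lep, and 3 fragments were taken as the limit that a listed 0 allows. Ovarian markers were present throughout, with a summed level of 180 to 1384 FPKM for 7 granulosa cell genes and of 414 to 1163 FPKM for 7 oocyte genes. In bulk tissue, fewer cells of a type and less RNA per cell cannot be told apart.

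Adipoq encodes adiponectin, the adipokine most particular to fat cells. In F1-Control ovaries it stood at 0.0231, 0 and 0.0925 FPKM in the 3 Pd3 libraries, at 0.364, 0.872 and 1.26 FPKM at Pd7, and at 8.49, 4.42 and 33.2 FPKM at Pd21. In F1-HHcy ovaries it stood at 0.291, 1.77 and 0 FPKM at Pd3, at 0.619, 1.52 and 1.31 FPKM at Pd7, and at 5.31, 1.07 and 0.968 FPKM at Pd21. The third F1-Control Pd21 library was the highest of all 18, and the first F1-HHcy Pd21 library lay between the F1-Control libraries of that day, so the diets overlapped at every age. In the order of the group means, from F1-Control Pd21 at 15.4 ± 15.6 (SD, n = 3) over F1-HHcy Pd21, F1-HHcy Pd7, F1-Control Pd7 and F1-HHcy Pd3 down to F1-Control Pd3 at 0.0385 ± 0.0481 (SD, n = 3), all neighbouring groups overlapped.

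Retn encodes resistin, an adipokine that mouse fat cells secrete. It stood at 0.221, 0.325 and 0.177 FPKM in F1-Control Pd3, 0.196, 0.637 and 1.38 FPKM in F1-Control Pd7, and 6.11, 4.46 and 30.4 FPKM in F1-Control Pd21 libraries. In F1-HHcy it stood at 0.729, 0.39 and 0.0902 FPKM at Pd3, 0.137, 0.970 and 0.964 FPKM at Pd7, and 2.07, 0.544 and 0.710 FPKM at Pd21. The diets overlapped at Pd3 and Pd7, whereas every F1-HHcy Pd21 library lay below every F1-Control Pd21 library.

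Lep encodes leptin, the hormone that reports the size of the fat store to the brain. It was listed at 0 in 12 of the 18 libraries, which allows a level of up to 0.0236 to 0.0272 FPKM. The third F1-Control Pd21 library held 127 Lep fragments, or 1.01 FPKM with a 95% Poisson interval of 0.838 to 1.20 FPKM that covers counting error only. The other libraries with any fragment were the first F1-HHcy Pd3 library with 2, the first F1-Control Pd7 library with 4, the second F1-HHcy Pd7 library with 1, the first F1-Control Pd21 library with 5 and the second F1-HHcy Pd21 library with 1. The highest of these stood at 0.0394 FPKM, so leptin transcript stood apart in 1 library alone, the one that was also highest in Adipoq and Retn.

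Cfd encodes adipsin (complement factor D), a serine protease secreted by fat cells. It was at 0 in the 3 F1-Control Pd3 libraries, which allows up to 0.0927 FPKM, and stood at 0.152, 0.276 and 0.889 FPKM in F1-Control Pd7 and at 46.7, 30.7 and 37.5 FPKM in F1-Control Pd21 libraries. In F1-HHcy it stood at 0.329, 0.333 and 0.126 FPKM at Pd3, 3.59, 2.74 and 8.14 FPKM at Pd7, and 36.7, 4.00 and 2.01 FPKM at Pd21. F1-HHcy lay above F1-Control without overlap at Pd3 and Pd7, and at Pd21 the first F1-HHcy library lay among the F1-Control libraries while the other two lay far below them. Cfd was the member whose highest library was not the third F1-Control Pd21 library but the first.

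The sequence upstream of the transcription start is shown for Adipoq, Cfd and Lep, since these 3 secreted products were spread differently over the Pd21 libraries. Promoters of 7 of the 8 members were found in the RefSeq table of build GRCm38.p6, and each line gives the 250 bases before the start, 5′ to 3′. The capitals mark CCAAT or its reverse complement, the palindrome TTGCGCAA that C/EBP factors bind, and TATAAG.
Adipoq, chr16:23146286-23146535, plus strand: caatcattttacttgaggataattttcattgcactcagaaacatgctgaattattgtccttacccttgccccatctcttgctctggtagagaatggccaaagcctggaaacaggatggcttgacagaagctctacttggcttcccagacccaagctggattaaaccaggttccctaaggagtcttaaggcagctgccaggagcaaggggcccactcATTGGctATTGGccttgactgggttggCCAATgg
Cfd, chr10:79890603-79890852, plus strand: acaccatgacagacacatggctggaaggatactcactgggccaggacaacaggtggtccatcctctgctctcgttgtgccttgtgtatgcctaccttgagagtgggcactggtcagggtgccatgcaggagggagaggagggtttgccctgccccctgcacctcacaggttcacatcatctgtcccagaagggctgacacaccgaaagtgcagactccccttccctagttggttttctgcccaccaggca
Lep, chr6:29059971-29060220, plus strand: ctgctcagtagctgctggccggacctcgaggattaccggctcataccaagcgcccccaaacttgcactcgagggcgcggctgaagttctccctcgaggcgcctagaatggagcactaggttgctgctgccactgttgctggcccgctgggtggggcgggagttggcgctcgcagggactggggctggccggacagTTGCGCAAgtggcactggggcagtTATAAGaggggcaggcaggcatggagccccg
TTGCGCAA was found in Lep alone among the members, with its last base 48 bases before the start, and in 0.164% of the 32851 promoters of the table. The PPARγ element AGGTCANAGGTCA, searched on both strands like the others, was in none of the members' windows and in 0.0335% of all promoters, and AGGTCA by itself was also in none of them against 14% of all promoters. CCAAT was in Adipoq (3 times) and Plin4 (once), against 33.8% of all promoters. TATAAA was in no member against 12.4%, and TATAAG, which was added after the Lep sequence had been seen, was in Lep and Plin4 against 6.65%. These matches describe the letters in the windows, and elements further away were not searched.

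Plin1 encodes perilipin 1, the protein that coats the large lipid droplet and gates lipolysis. It stood at 0.0963, 0.257 and 0.124 FPKM in F1-Control Pd3, 0.773, 0.740 and 1.75 FPKM in F1-Control Pd7, and 4.64, 1.94 and 10.5 FPKM in F1-Control Pd21 libraries. In F1-HHcy it stood at 3.05, 0.824 and 0.379 FPKM at Pd3, 4.84, 5.60 and 5.59 FPKM at Pd7, and 7.37, 3.48 and 1.77 FPKM at Pd21. F1-HHcy lay above F1-Control without overlap at Pd3 and Pd7, and the diets overlapped at Pd21. The order of the Plin1 means differed from that of Adipoq, with F1-HHcy Pd7 at 5.35 ± 0.437 (SD, n = 3) next to F1-Control Pd21 at 5.70 ± 4.39 (SD, n = 3).

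Plin4 encodes perilipin 4, which coats small, newly formed droplets, and reached 1 FPKM in 1 library only. It stood at 0.0278, 0.0323 and 0.0486 FPKM in F1-Control Pd3, 0.111, 0.00402 and 0.124 FPKM in F1-Control Pd7, and 0.526, 0.550 and 1.54 FPKM in F1-Control Pd21 libraries. In F1-HHcy it stood at 0.0823, 0.0951 and 0.0124 FPKM at Pd3, 0.296, 0.355 and 0.360 FPKM at Pd7, and 0.493, 0.162 and 0.335 FPKM at Pd21. The F1-HHcy libraries lay above those of F1-Control at Pd7 and below them at Pd21, in both cases without overlap. The annotation gives 17 exon bases of Plin4 to the opposite-strand gene Hdgfl2 as well, and no exon of the other members is shared with another gene.

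Cidec encodes a protein that fuses lipid droplets into the single large droplet of white fat cells. In F1-Control it stood at 0, 0.0159 and 0 FPKM at Pd3, 0.0160, 0.0483 and 0.265 FPKM at Pd7, and 2.15, 1.85 and 8.13 FPKM at Pd21. In F1-HHcy it stood at 0.0314, 0.207 and 0 FPKM at Pd3, 0, 0.119 and 0.692 FPKM at Pd7, and 2.29, 0.281 and 0.116 FPKM at Pd21. The diets overlapped on each day, at Pd21 through the first F1-HHcy library alone.

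Fabp4 encodes the fatty acid-binding protein of fat cells, which capillary endothelium and macrophages also make, and it was the most abundant member in most libraries. In F1-Control it stood at 0.955, 3.41 and 0.862 FPKM at Pd3, 3.52, 8.56 and 12.1 FPKM at Pd7, and 39.1, 14.7 and 227 FPKM at Pd21. In F1-HHcy it stood at 5.85, 8.22 and 3.58 FPKM at Pd3, 7.43, 13.2 and 9.86 FPKM at Pd7, and 30.1, 6.31 and 2.79 FPKM at Pd21. The diets did not overlap at Pd3, where F1-HHcy was the higher, and overlapped at Pd7 and Pd21.

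**Figure D1:**
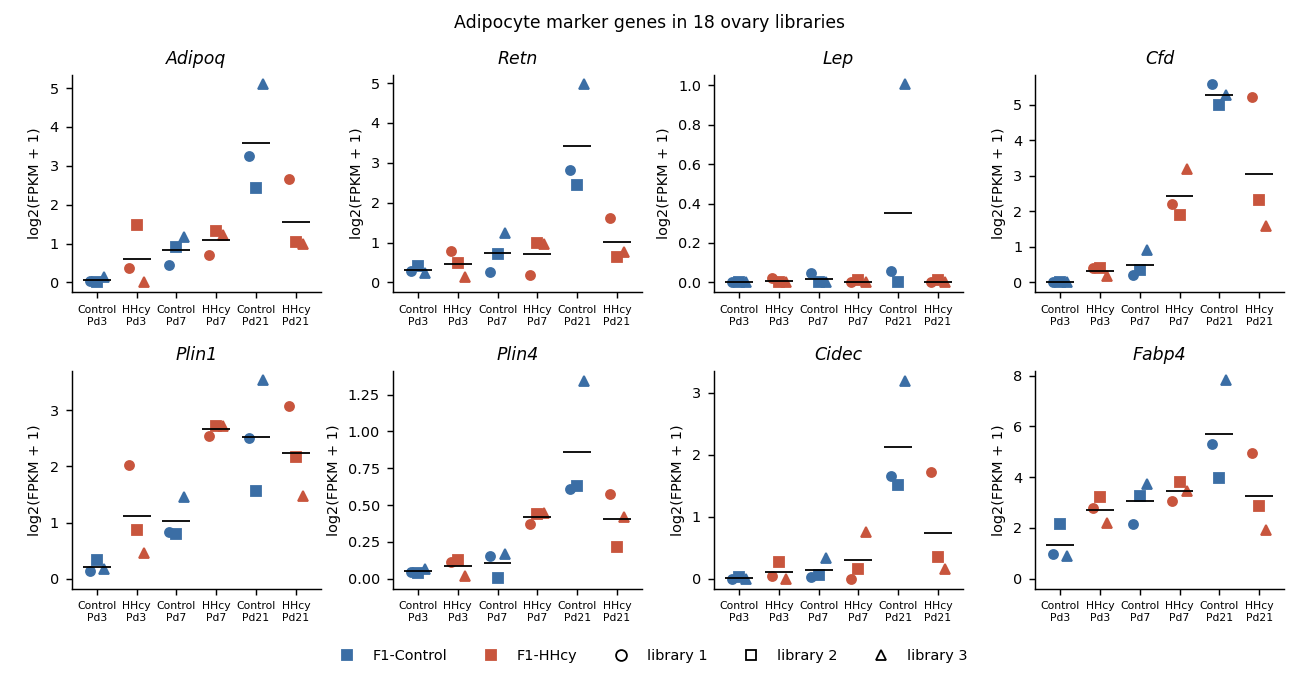
Level of each adipocyte marker gene, as log2(FPKM + 1) on the vertical axis, in the 3 libraries of each of the 6 groups, with marker shapes for library numbers and black lines for group means. The third F1-Control Pd21 library (triangle) is the highest of all 18 for 7 of the 8 members, and the exception is Cfd.

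Added up over the 8 members, the level was 1.30 to 4.03 FPKM in F1-Control and 4.19 to 11.8 FPKM in F1-HHcy libraries at Pd3. At Pd7 it was 5.16 to 17.8 FPKM in F1-Control and 16.9 to 26.9 FPKM in F1-HHcy. At Pd21 it was 108, 58.6 and 349 FPKM in the F1-Control libraries and 84.3, 15.9 and 8.70 FPKM in the F1-HHcy libraries. The means of the Pd21 groups were 172 ± 156 FPKM in F1-Control and 36.3 ± 41.7 FPKM in F1-HHcy (SD, n = 3 each). In 7 of the 8 members every F1-Control Pd21 library lay above every F1-Control Pd7 library, as in 24.4% of the 13489 genes that reached 1 FPKM in 3 or more of these 6 libraries (40.8% in either direction). In F1-HHcy none of the 8 was free of overlap between Pd21 and Pd7, against 37.2% of 13256 genes in either direction (18.7% with Pd21 above). No test was made across these days or of the difference between the diets in these counts.

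**Figure D2:**
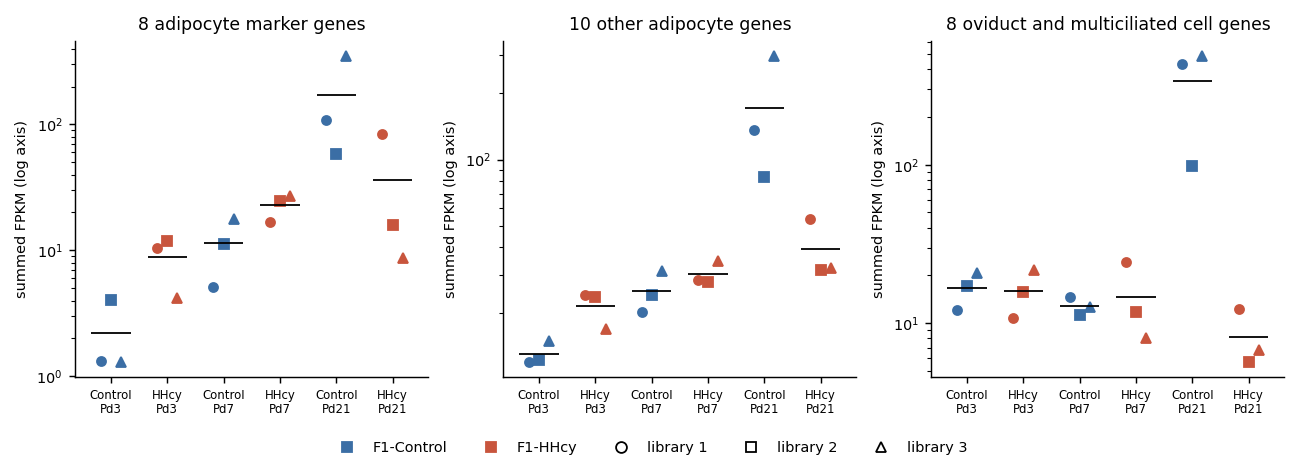
Summed FPKM (log axis) per library of the 8 adipocyte marker genes, of 10 other adipocyte genes and of 8 oviduct and multiciliated cell genes, with the black lines at the group means. The first F1-HHcy Pd21 library stands at 84.3 FPKM for the adipocyte markers, within the F1-Control range, and at 12.2 FPKM for the oviduct genes, below the F1-Control range of 97.6 to 486 FPKM.

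The diets were compared day by day with limma on log2(FPKM + 1) keeping genes that reached 1 FPKM in 3 or more of the 6 libraries. A gene passed if its unadjusted p was under 0.05 and its log2 difference was above 0.58 in size. Adjusted p-values were computed by limma with the Benjamini-Hochberg method across the whole set of genes tested. Members that did not reach the filter have levels only.

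At Pd3, Fabp4 was the only member of the 8 to reach the filter, and it rose in F1-HHcy, with a mean of 5.88 ± 2.32 against 1.74 ± 1.44 FPKM (SD, n = 3 each). The log2 difference was 1.39 ± 0.38 (SE, limma adjusted p = 0.0929), and 5% of 13277 genes passed in this direction. With all 18 libraries in 1 model, which share 1 estimate of the spread, Fabp4 did not pass. F1-HHcy lay above F1-Control without overlap in Fabp4, as in 11.8% of the genes tested. Of the markers of the vessel wall cells that also make Fabp4, 4 of 8 tested endothelial genes passed as higher and none as lower, and the sum of the 9 listed ones was 101 to 143 FPKM in F1-HHcy against 62.9 to 83.9 FPKM in F1-Control, with no listed gene at 0 in any library. The 8 macrophage genes, whose cells also make Fabp4, overlapped between the diets, with sums of 74.4 to 96.7 FPKM in F1-HHcy and 65.5 to 109 FPKM in F1-Control. Of the red blood cell genes, 6 of 6 passed as lower, against 4.74% of all genes tested, with sums of 780.28 to 1107.5 FPKM in F1-HHcy against 3914.5 to 11214 FPKM in F1-Control. The part of these cells in the Fabp4 difference was not tested. Plin1 and Cfd, with no overlap between the diets, stayed under the filter, and the 78 Adipoq fragments of the second F1-HHcy library were not matched in the other F1-HHcy libraries, which held 13 and 0.

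At Pd7, 4 members reached the filter and 2 of them, Cfd and Plin1, rose in F1-HHcy. Cfd averaged 4.82 ± 2.90 against 0.439 ± 0.395 FPKM (SD, n = 3 each), a log2 difference of 1.94 ± 0.32 (SE, limma adjusted p = 0.00678). Plin1 averaged 5.35 ± 0.437 against 1.09 ± 0.572 FPKM, a log2 difference of 1.64 ± 0.20 (SE, limma adjusted p = 0.00268). Genes passing as higher made up 9.06% of the 13299 tested, those that also had an adjusted p under 0.05 made up 5.64%, and those with F1-HHcy above F1-Control without overlap made up 19.5%. Adipoq and Fabp4 did not pass, with log2 differences of 0.24 ± 0.23 (adjusted p = 0.51) and 0.40 ± 0.35 (adjusted p = 0.455), and for Fabp4 the difference was -0.04 without the first and 0.73, past the criterion, without the third F1-Control library. The macrophage genes had sums of 53.5 to 76.3 FPKM in F1-HHcy against 88.7 to 126 FPKM in F1-Control at Pd7, without overlap, and 2 of 7 tested passed as lower. Cidec, Retn and Lep, which did not reach the filter, overlapped between the diets, and Retn had means of 0.738 FPKM in F1-Control and 0.690 FPKM in F1-HHcy. Plin4, also under the filter, lay higher in F1-HHcy without overlap, at 0.296 to 0.360 against 0.00402 to 0.124 FPKM. Over the 4 members tested the median log2 difference was 1.02, against -0.001 over all genes tested. Cfd met the filter through the F1-HHcy libraries alone, as every F1-Control library was under 1 FPKM. The median therefore depends on the filter and describes these 4 members only.

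Theca and steroidogenic genes were set beside Plin1 at these ages. The list, Cyp17a1, Cyp11a1, Star, Hsd3b1, Lhcgr and Insl3, was added after the data had been seen. Its summed level was 1136 to 1195 FPKM in F1-HHcy and 216 to 449 FPKM in F1-Control at Pd7. In the limma fits 6 of 6 passed as higher at Pd7, 0 of 2 tested passed at Pd3 and 0 of 5 at Pd21. These counts carry no weight, because the list was chosen with the data known. At Pd3 the first F1-HHcy library, highest of its day in Plin1 at 3.05 FPKM, had a sum of 679 FPKM, the second F1-HHcy library had 349 FPKM and the F1-Control libraries had 98.4 to 152 FPKM. The third F1-HHcy Pd3 library went the other way, with the lowest sum of all at 71.3 FPKM and a Plin1 level of 0.379 FPKM, above every F1-Control Pd3 library. Adipoq stood at 0.291 FPKM in the first F1-HHcy Pd3 library and at 0 in the third. The second F1-HHcy Pd3 library, with 1.77 FPKM of Adipoq, held 0.824 FPKM of Plin1. Granulosa cell markers also passed as higher at Pd7 (5 of 7 tested), and oocyte markers (6 of 7 tested) and red blood cell genes (5 of 5) as lower, where 9.06% of all genes tested passed as higher and 7.35% as lower. What these cells contributed to Plin1 and Cfd was not tested.

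**Figure D3:**
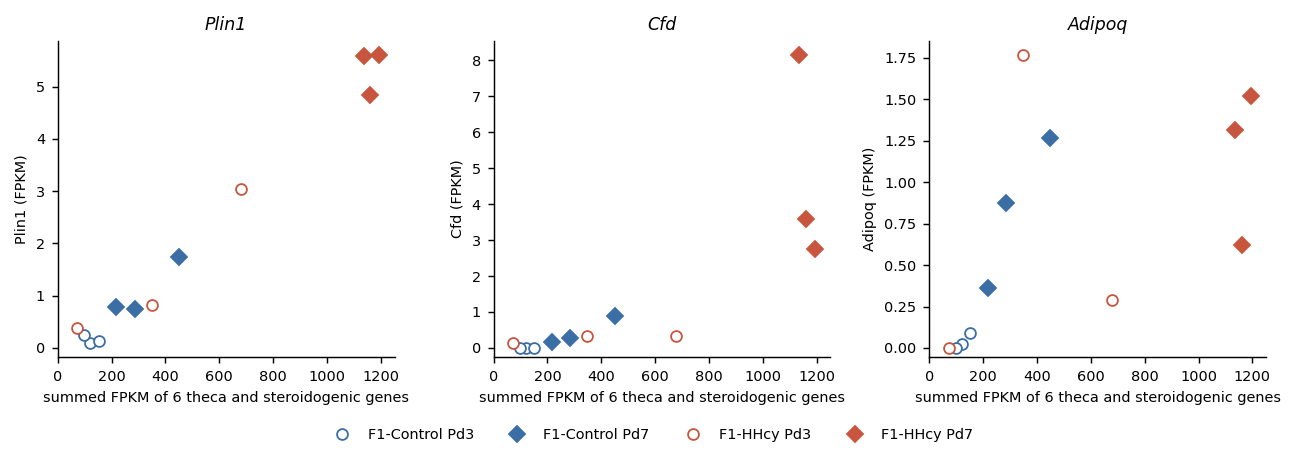
FPKM of Plin1, Cfd and Adipoq against the summed FPKM of 6 theca and steroidogenic genes in the 12 libraries of Pd3 (open circles) and Pd7 (filled diamonds). Plin1 is highest in the 3 F1-HHcy Pd7 libraries, at 4.84 to 5.60 FPKM, followed by the first F1-HHcy Pd3 library at 3.05 FPKM, whereas the highest Adipoq value, 1.77 FPKM, belongs to a library with a sum of 349 FPKM.

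At Pd21, 6 members reached the filter and 5 of them fell in F1-HHcy by the unadjusted criterion: Adipoq, Retn, Cfd, Cidec and Fabp4. Genes passing as lower made up 5.06% of the 13350 tested, and those that also had an adjusted p under 0.05 made up 2.23% but included none of the members. Retn had a log2 difference of -2.41 ± 0.60 (SE, limma adjusted p = 0.124), with group means of 1.11 ± 0.836 in F1-HHcy and 13.7 ± 14.5 FPKM in F1-Control (SD, n = 3 each). Adipoq had -2.03 ± 0.68 (adjusted p = 0.364), Cfd -2.23 ± 0.79 (adjusted p = 0.437), Cidec -1.37 ± 0.53 (adjusted p = 0.551) and Fabp4 -2.46 ± 1.01 (adjusted p = 0.644). Plin1 did not pass, at -0.29 ± 0.53 (adjusted p = 1), and its sign turned when the third F1-Control library (0.21) or the third F1-HHcy library (0.09) was left out. Over the 6 members tested the median log2 difference was -2.13, against -0.01 over all genes. Cidec and Retn reached 1 FPKM in every F1-Control library but only in the first F1-HHcy library of this day. They met the filter through the higher group, so the median depends on the filter.

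The Pd21 calls rested on few libraries. Without the third F1-Control library, Adipoq (-1.28) and Retn (-1.63) passed and Cfd, Cidec and Fabp4 did not, which leaves 2 of the 5 (limma). With no filter on low values the same 3 calls were lost, and with limma-voom on the recovered fragments that of Fabp4 was lost (-2.68). Without the second or without the third F1-HHcy library 1 of the 5 passed, and it was Retn in both cases. Without the first F1-Control library 3 passed, Adipoq, Cidec and Retn. Without the first F1-HHcy library, the one inside the F1-Control range, all 5 passed and the log2 difference of Cfd went from -2.23 to -3.32. Retn was the only tested member without overlap between the diets, as in 8.61% of the genes tested.

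**Figure D4:**
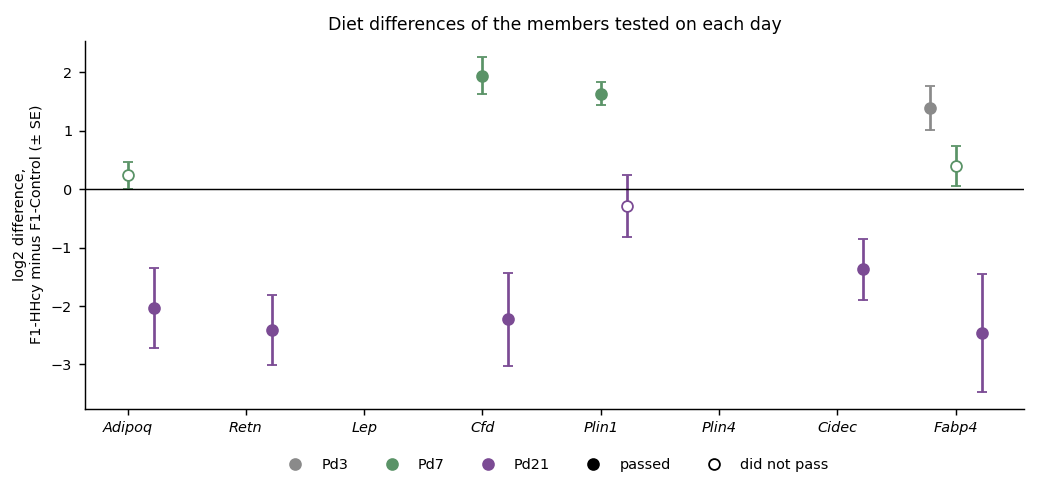
Log2 difference between F1-HHcy and F1-Control (± SE of the limma fit) for each member that reached the filter at Pd3, Pd7 or Pd21, with filled points for those that passed the unadjusted criterion. Cfd lies at 1.94 at Pd7 and at -2.23 at Pd21, and Plin1 at 1.64 and -0.29.

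Markers of some other tissues in or around the ovary moved with the diet at Pd21 too. Of the oviduct and multiciliated cell genes, 7 of 7 tested (8 listed) passed as lower, with a summed level of 430, 97.6 and 486 FPKM in the F1-Control libraries against 12.2, 5.69 and 6.73 FPKM in F1-HHcy, and no listed gene was at 0. Ovgp1, the secreted glycoprotein of the oviduct, stood at 37.5 to 365 FPKM against 0.370 to 2.10 FPKM, Rsph1, a part of the ciliary spoke, at 20.8 to 73.2 FPKM against 2.87 to 5.50 FPKM, and Foxj1, the regulator of motile cilia, at 20.4 to 99.1 FPKM against 0.248 to 0.441 FPKM. Some of the 7, Foxj1 among them, met the filter through the F1-Control libraries alone, so the count of 7 rests in part on that choice. Mesothelium and surface epithelium genes passed as lower in 6 of 6 cases, with sums of 302 to 357 FPKM against 91.8 to 203 FPKM and no gene at 0. None of these 6 had a limma adjusted p under 0.05, while all 7 tested oviduct genes did. Among all genes tested, 5.06% passed as lower. Smooth muscle genes passed as lower in 3 of 7 cases. No endothelial (8 tested), macrophage (6 tested) or red blood cell gene (5 tested) passed. Within the F1-HHcy group, the adipocyte markers ranged from 8.70 to 84.3 FPKM while the oviduct genes ranged from 5.69 to 12.2 FPKM. Whether tissue beside the ovary entered the libraries of the groups unequally was not tested.

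The members did not keep fixed proportions to each other across the Pd21 libraries. Relative to Adipoq, the FPKM of Fabp4 varied from 2.88 to 6.85 and that of Retn from 0.389 to 1.01, a range of 2.38-fold and 2.59-fold, while Adipoq itself varied from 0.968 to 33.2 FPKM. Cfd relative to Adipoq was 5.51, 6.93 and 1.13 in the F1-Control and 6.90, 3.72 and 2.08 in the F1-HHcy libraries, so the library richest in Adipoq had the lowest ratio. Plin1 relative to Adipoq was 0.547, 0.438 and 0.318 in F1-Control against 1.39, 3.24 and 1.83 in F1-HHcy libraries, without overlap. Adipoq, the divisor, passed as lower in F1-HHcy on this day (-2.03), while Plin1 itself did not pass (-0.29) and overlapped between the diets. The ratio therefore carries the Adipoq difference as well, and how many other genes separate so was not counted. As a description over 18 libraries with the group means removed, the Pearson correlation with Adipoq was 0.913 for Fabp4, 0.895 for Cidec and 0.873 for Retn, but 0.538 for Cfd. In the 12 libraries of Pd3 and Pd7 these values were 0.656, 0.558, 0.571 and 0.315. Without the third F1-Control Pd21 library they were 0.842, 0.800, 0.745 and 0.743 over 17 libraries.

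**Figure D5:**
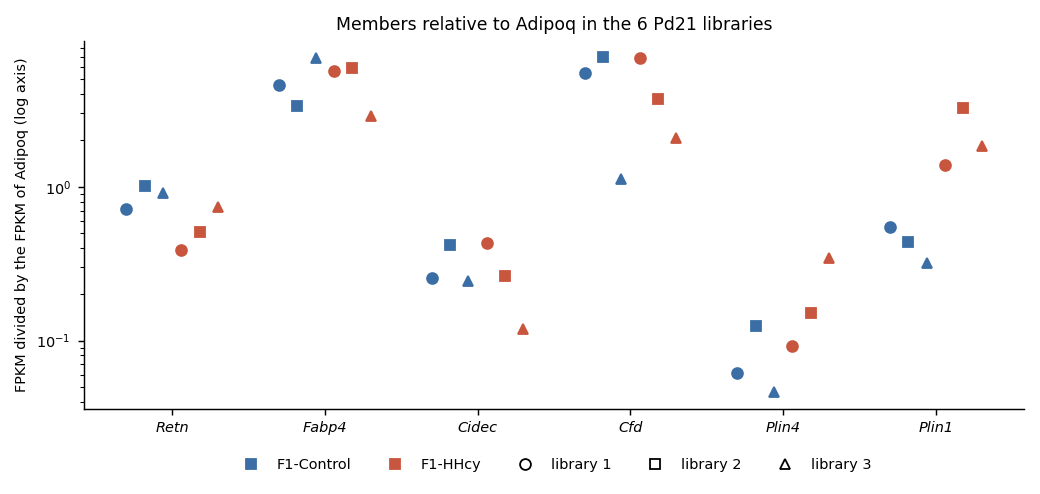
FPKM of 6 members divided by the FPKM of Adipoq (log axis) in each of the 6 Pd21 libraries. Fabp4 and Retn stay within a range of 2.38-fold and 2.59-fold, whereas Plin1 spreads from 0.318 to 3.24, with the 3 F1-HHcy libraries above the 3 F1-Control libraries.

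Within batch 1 the days could be compared. In F1-Control, Fabp4 was the only member to reach the filter and it rose from Pd3 to Pd7, with a log2 difference of 1.71 ± 0.42 (SE, limma adjusted p = 0.0297), where 7% of 13336 genes passed as higher. In F1-HHcy, 3 of the 4 members tested rose: Cfd by 2.10 ± 0.32, Plin1 by 1.55 ± 0.36 and Fabp4 by 0.72 ± 0.29 on the log2 scale (limma adjusted p = 0.0892, 0.0989 and 0.189), where 5.73% of 13257 genes passed as higher. Cfd met the filter through the Pd7 libraries alone. The Fabp4 call was lost without the first or the third F1-HHcy Pd3 library and without the second or the third F1-HHcy Pd7 library, and also with no filter, with limma-voom and with all 18 libraries in 1 model. Adipoq in F1-HHcy had a log2 difference of 0.47 ± 0.38 (adjusted p = 0.484) and did not pass, except when the second F1-HHcy Pd3 library was left out.

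The diet difference itself was compared between days in 1 limma model of all 18 libraries. Between Pd7 and Pd3, none of the 6 members tested passed in either direction, in limma at unadjusted p-values of 0.077 or more and likewise in limma-voom on the recovered fragments, where 10% of 14607 genes passed. The nearest was Cfd, with a difference of 1.61 ± 0.85 (SE, limma adjusted p = 0.402), and it passed when only the 12 libraries of these days were fitted, while limma-voom turned its sign (-0.45). Between Pd21 and Pd7, all 6 members tested passed as lower, from Cfd at -4.17 ± 0.85 (SE, limma adjusted p = 0.00811) to Cidec at -1.54 ± 0.56 (adjusted p = 0.145), where 9.72% of genes passed in that direction. Cidec and Retn reached 1 FPKM in 4 and 5 of the 18 libraries, every F1-Control Pd21 library among them. Both thus met the filter through the group where they were highest, and the count of 6 rests in part on that choice. The adjusted p was under 0.05 for Cfd alone, and with limma-voom on the recovered fragments 3 of the 6 passed, as Adipoq, Cidec and Retn did not. The Fabp4 call was lost without the first F1-Control Pd7 (-2.42), the third F1-Control Pd21 (-1.80) or the third F1-HHcy Pd21 library (-2.20). Plin1, which did not pass at Pd21, changed its diet difference by -1.93 ± 0.64 (adjusted p = 0.112) between the days, from a rise at Pd7. Age and batch cannot be told apart here.

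The genes most like the members, by the Pearson correlation of log2(FPKM + 1) with the members' mean after removal of group means, were sought among 14601 other genes over the 18 libraries. Car3, the carbonic anhydrase abundant in fat cells, came first at 0.926, with 0.927 over the 12 libraries of Pd3 and Pd7 and 0.987 over the 6 of Pd21. Its Pd21 levels were 34.5, 27.9 and 204 FPKM in F1-Control and 18.4, 4.68 and 2.99 FPKM in F1-HHcy, in the same order within each diet as Adipoq. Car3 was picked for its likeness to a mean that includes Adipoq, so this order is no separate support. Pck1, a gluconeogenic enzyme that fat cells use for glycerol, came sixth at 0.876. The other 13 of the 15 closest were Cpt1a, Ank2, Fads2, Abhd2, Ccdc8, Tsku, Sox17, Trp53inp2, Ccnjl, Rnf6, Myo1a, Gas6 and Scarb1, from 0.892 down to 0.851. In Pd3 and Pd7 alone the 13 ranged from 0.792 for Gas6, a secreted ligand of receptor kinases, to -0.152 for Fads2, a fatty acid desaturase. Of the 15, 9 were highest in the third F1-Control Pd21 library, and without that library the 15 correlations lay between 0.744 and 0.909 over 17 libraries.

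Of 44 further genes of fat cells, 31 were at 1 FPKM or more in every F1-Control Pd3 library, where no member was. Over these lists 4 of 31 tested genes passed as higher and 2 as lower in F1-HHcy at Pd3, 6 of 35 as higher and 1 as lower at Pd7, and none of 38 as higher and 7 as lower at Pd21. For comparison, the genes passing as higher were 5% (Pd3), 9.06% (Pd7) and 0.0824% (Pd21) of all genes tested, and those passing as lower 4.74%, 7.35% and 5.06%. Their median log2 difference was 0.14, 0.04 and -0.31 on these days. Klf15 at Pd7 and Gpd1 at Pd21, which are among the genes counted, met the filter through the higher group alone.

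Among the adipogenic transcription factors, Cebpb, Srebf1 and Cebpa had the highest means, at 8.64, 7.56 and 5.36 FPKM over the 18 libraries. At Pd7 Pparg (1.25 ± 0.27), Cebpa (0.96 ± 0.19) and Klf15 (0.76 ± 0.16) rose on the log2 scale, with limma adjusted p of 0.0188, 0.0143 and 0.0167. Klf15 met the filter through the F1-HHcy libraries alone, with 0.287 to 0.705 FPKM in F1-Control. Pparg stood at 5.61, 5.25 and 6.01 FPKM in F1-HHcy and at 1.08, 1.25 and 3.57 FPKM in F1-Control at Pd7, and at Pd21 it overlapped between the diets, with 3.94 to 8.93 against 4.73 to 7.91 FPKM. Pparg was lowest of the Pd21 F1-Control libraries in the third, the one with the most Adipoq. Cebpa also rose at Pd3 (0.67 ± 0.22, adjusted p = 0.133), and Cebpd fell at Pd21 (-0.72 ± 0.21, adjusted p = 0.21).

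Among lipid droplet and lipolysis genes, Cavin1, Plin2 and G0s2 were the most abundant, with means of 55.4, 44.9 and 18.3 FPKM. Of the 9 tested, Bscl2, which shapes nascent droplets, rose at Pd3 (0.68 ± 0.19, limma adjusted p = 0.0927), none passed at Pd7, and Mgll, the monoglyceride lipase, fell at Pd21 (-0.79 ± 0.29, limma adjusted p = 0.489). Plin2, the perilipin of non-fat cells, ranged from 26.8 to 66.9 FPKM over all libraries, far above Plin1.

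Among lipid uptake and synthesis genes, Me1, Lpl and Gpam had means of 50.8, 39.9 and 25.7 FPKM. Dgat2 fell at Pd3 (-0.69 ± 0.21, limma adjusted p = 0.117), Gpam, which starts triglyceride synthesis, rose at Pd7 (1.02 ± 0.19, limma adjusted p = 0.0111), and Gpd1 (-2.25 ± 0.50, adjusted p = 0.0742) and Thrsp (-1.36 ± 0.54, adjusted p = 0.596) fell at Pd21. Gpd1, which makes the glycerol backbone, stood at 7.79, 1.95 and 13.7 FPKM in F1-Control against 0.763, 0.371 and 0.454 FPKM in F1-HHcy at Pd21. It met the filter of that day through the F1-Control libraries alone. Lpl, the lipase that releases fatty acids from lipoproteins, reached 103 FPKM in the third F1-Control Pd21 library, its highest value.

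Among the other adipocyte genes, Car3, Hp and Aoc3 had means of 18.6, 8.05 and 7.73 FPKM. Hp (-3.28 ± 0.38, limma adjusted p = 0.0048), Adig (-2.06 ± 0.33, adjusted p = 0.0161) and Car3 (-2.97 ± 0.80, adjusted p = 0.164) fell at Pd21. Hp, the hemoglobin-binding plasma protein that epithelia also make, was highest in the first F1-Control library at 61.1 FPKM and not in the third at 31.3 FPKM. Adig, a small protein of fat-cell droplets, stood at 9.63, 5.0 and 9.15 FPKM in F1-Control against 2.28, 0.821 and 0.482 FPKM in F1-HHcy, without overlap. At Pd7 Aoc3 (1.01 ± 0.21, adjusted p = 0.0167) and Mrap (1.20 ± 0.25, adjusted p = 0.0168) rose and Lgals12 (-0.78 ± 0.16, adjusted p = 0.0158) fell. At Pd3 Rbp4 (1.05 ± 0.13, limma adjusted p = 0.0169) and Aoc3 (0.86 ± 0.28, adjusted p = 0.13) rose and Hp fell (-0.77 ± 0.31, adjusted p = 0.205).

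Of the receptors for the members' hormones, Adipor1 and Adipor2, which bind adiponectin, had means of 32.6 and 19.0 FPKM, and neither passed on any day. Lepr, the leptin receptor, averaged 3.64 FPKM and rose in F1-HHcy at Pd3 (1.05 ± 0.26, limma adjusted p = 0.0745), where Lep itself was at 2 fragments or fewer.

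Of the 10 brown fat genes, Cox7a1, S100b and Dio2 had the highest means, at 7.46, 2.33 and 1.67 FPKM. At Pd3 S100b rose (1.31 ± 0.28, limma adjusted p = 0.0537) and Cox7a1, a subunit of the respiratory chain that muscle also makes, fell (-0.82 ± 0.20, adjusted p = 0.0712). S100b met the filter of that day through the F1-HHcy libraries alone, with 0.269 to 0.480 FPKM in F1-Control. At Pd7 Dio2, the deiodinase that activates thyroid hormone, rose (1.20 ± 0.25, limma adjusted p = 0.0173), with means of 2.92 against 0.670 FPKM, and Cox7a1 fell (-1.02 ± 0.33, adjusted p = 0.073). At Pd21 2 of the 5 tested passed as lower, Cidea and S100b (-0.68 ± 0.29, limma adjusted p = 0.718), while Cox7a1, Dio2 and Prdm16 had log2 differences of 0.06, 0.14 and 0.04. Ucp1, the defining gene of brown fat, stayed under the filter. It was at 0.747 to 1.35 FPKM in the F1-Control Pd3 libraries, where Adipoq was at 0 to 0.0925 FPKM, at 0.0671 to 0.459 FPKM in the F1-HHcy Pd3 libraries, and at 0 to 0.186 FPKM in the Pd7 and Pd21 libraries. Cidea, a droplet protein of brown fat and of some epithelia, fell at Pd21 (-2.30 ± 0.32, limma adjusted p = 0.00842), from 2.71 to 7.92 FPKM in F1-Control to 0.0223 to 0.0715 FPKM in F1-HHcy. Cidea thus met the filter through the F1-Control libraries alone.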

How the data were processed

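Poly-A RNA of whole ovaries was sequenced in 18 stranded libraries, 3 per group. The authors deposited a normalized value for every gene symbol in every library, with no unit named. The deposited values were read as FPKM, because dividing out a length per gene and a depth per library left whole fragments (within 0.05) in 99.989% of 27294 genes detected in 3 or more libraries. The submitters' processing notes name FastQC 0.11.9, Trimmomatic 0.39, STAR 2.7.9a, featureCounts 2.0.1, Subread, DESeq2 1.36.0 and GRCm38 (mm10), and neither the annotation nor the strand setting of the counting is given in the sources used here. Reads of overlapping genes may therefore be shared. The notes also do not say how FPKM were scaled, and FPKM are relative to all fragments of a library, so a few abundant transcripts move all other values.

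The members and gene lists were chosen with earlier results of these data known. Groups were taken from the labels. limma 3.58.1 (R 4.3.3) with a variance trend was applied to log2(FPKM + 1), which understates the change of genes near 1 FPKM, keeping genes that reached 1 FPKM in 3 or more libraries. The fit ran on all such genes and was tested on simulated data. The smallest p that a 2-sided exact permutation test can give with groups of 3 is 0.1. The text names all members, the 3 most abundant genes of each wider list, those that passed in a diet comparison with the smallest p (up to 3 a list), and the 15 genes most like the members. The rule was applied to the lists of fat-cell, hormone receptor and brown fat genes. The lists of other cell types are given as counts and sums, of which only the 3 most abundant oviduct genes are named. Ucp1, Prdm16 and further values of listed genes were added after they had been seen. Alternatives were a pseudocount of 0.1, no filter, median-ratio scaling, limma-voom on recovered fragments, the adjusted p, the replicate number as a block, other sets of libraries, and each library left out. Gene positions and promoters were read from GENCODE vM21 and RefSeq (GRCm38.p6), with Python 3.11.15, numpy 2.4.6, pandas 2.3.3, scipy 1.17.1 and matplotlib 3.10.9.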

Additional observations from a re-analysis of the deposited data

Results flagged for a closer look

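The diet difference changed between Pd7 and Pd21 in each of the 6 members tested, by the unadjusted criterion in the limma model of all 18 libraries, and 1 of the 6 had an adjusted p under 0.05. In this direction 9.72% of 14607 genes passed. With limma-voom on the recovered fragments 3 of the 6 members passed, as Adipoq, Cidec and Retn did not. The change of the log2 difference between the diets was -4.17 for Cfd, -2.86 for Fabp4, -2.38 for Retn, -2.27 for Adipoq, -1.93 for Plin1 and -1.54 for Cidec. Cfd and Plin1 had been higher in F1-HHcy at Pd7, whereas Adipoq and Fabp4 had not passed there and Retn and Cidec had not reached the filter. Retn and Cidec met the filter of the model of 18 libraries through the F1-Control Pd21 group, where they were highest. Age and batch cannot be told apart in these values, and the third F1-Control Pd21 library, at 349 FPKM for the 8 members together, entered all 6 of them. Without it the values were -4.17 for Cfd, -1.80 for Fabp4, -1.61 for Retn, -1.52 for Adipoq, -1.43 for Plin1 and -1.001 for Cidec, and that of Fabp4 no longer passed. The Fabp4 call was also lost without the first F1-Control Pd7 library (-2.42) and without the third F1-HHcy Pd21 library (-2.20).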

How the results depend on the processing

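The number of members that passed was 5 of 6 at Pd21 and went to 2 with no filter on low values (of 8 tested), to 0 with the adjusted p as threshold, and to 1 to 5 when a library was left out. The lowest count, 1, was reached without the second or the third F1-HHcy library. At Pd3 the count of 1 went to 0 with the adjusted p and with all 18 libraries in 1 model. From Pd3 to Pd7 it went from 1 to 3 in F1-Control with no filter and from 3 to 0 in F1-HHcy with the adjusted p. For the change of the diet difference it went from 0 to 1 between Pd3 and Pd7 with only 12 libraries fitted, and between Pd7 and Pd21 from 6 to 3 with limma-voom and to 1 with the adjusted p. Beyond the counts that moved, Fabp4 lost its call at Pd21 with limma-voom, and from Pd3 to Pd7 in F1-HHcy with limma-voom, with no filter and with all 18 libraries in 1 model. The cause was not tested. The replicate block left all 7 counts as they were (5 at Pd21), and same-numbered libraries of the diets correlated between -0.338 and 0.0872 in their deviations from the group means, so the numbers were not taken to pair libraries.

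Signs turned only in values that had not passed. With limma-voom the change of the diet difference from Pd3 to Pd7 was -0.45 for Cfd, -0.31 for Plin1 and -1.47 for Cidec, and Cidec was at -0.11 with a pseudocount of 0.1. With a library left out, the range was -0.63 to 0.11 for Adipoq, -0.16 to 0.22 for Cidec and -0.422 to 0.083 for Retn in that comparison, -0.038 to 0.732 for Fabp4 at Pd7, and -0.78 to 0.21 for Plin1 at Pd21. Of 436 member values under the alternatives, 377 kept their direction and their side of the criterion. With a library left out, the mean summed level of the members ranged over 83.2 to 229 FPKM in F1-Control Pd21 (172 with all 3) and 12.3 to 50.1 FPKM in F1-HHcy Pd21 (36.3 with all 3). Depth limits Lep, with 5 fragments or fewer in 17 libraries, and Cfd, Cidec and Adipoq at Pd3.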
